A study of Mus musculus with 12 samples.

Results

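The joint effect of *Creb1* knockdown and TVA was taken as the difference between the 3 libraries of cells that received both (si*Creb1* plus TVA) and the 3 libraries of cells that received neither (siNTC). These 6 of the 12 libraries were chosen by their labels, and the genes described are the 11548 of 54532 listed genes whose mean FPKM over the 6 libraries was at least 1. FPKM is the number of reads of a gene scaled by its length and by the size of the library. All 12 libraries came from wild-type mouse primary CD8+ T cells with a labelled time of 24 hours, and the series studies how *Creb1* knockdown changes the effect of TVA on the activation of these cells. The siNTC libraries came from cells given a non-targeting siRNA and DMSO, and the si*Creb1* plus TVA libraries from cells given an siRNA against *Creb1* and TVA. Both groups therefore carry an siRNA, and knockdown and TVA changed together between them. The other 6 libraries, siNTC with TVA and si*Creb1* with DMSO, 3 of each, take part in the fit and serve to set the single changes beside the joint one. The labels used here give no strain or age of the mice, both of which the study states in its methods. The labels also do not say whether the 3 libraries of a group came from separate mice or separate cultures, so the p-values below measure the spread between libraries.

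TVA is trans-vaccenic acid, a long-chain fatty acid that reaches mammals mainly through the meat and milk of ruminants. CREB, the product of *Creb1*, binds cAMP response elements in promoters, and once phosphorylated by protein kinase A and other kinases it recruits coactivators such as CBP and the CRTC proteins. Long-chain fatty acids also act on gene expression through nuclear receptors, and *Cpt1a*, which encodes the enzyme that commits them to oxidation in mitochondria, is a common target of that control.

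*Creb1* (ENSMUSG00000025958, chromosome 1, 64532645 to 64604548 of GRCm38) had 10.98, 10.3 and 10.5 FPKM in the siNTC libraries and 1.81, 1.67 and 1.17 FPKM in the si*Creb1* plus TVA libraries. Every si*Creb1* plus TVA library lay far below every siNTC library, so the knockdown matches the labels in all 6. The group means were 10.6 ± 0.359 and 1.55 ± 0.338 FPKM (SD, n = 3 each), which leaves 14.6% of the control level. *Cpt1a* (ENSMUSG00000024900, chromosome 19, 3323301 to 3385732) had 11.4, 11.7 and 12.05 FPKM in siNTC and 33.7, 32.3 and 33.8 FPKM in si*Creb1* plus TVA libraries. Here the treated libraries were all high and the controls all low, with means of 11.7 ± 0.333 and 33.2 ± 0.844 FPKM (SD, n = 3 each). The exact permutation test of 3 libraries against 3, two-sided, gave p = 0.1 for each of the 2 genes, the smallest p this design allows.

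The 9 markers of CD8+ T cells were all present. *Cd8b1* had 924, 937 and 941 FPKM in siNTC and 843, 834 and 859.7 FPKM in si*Creb1* plus TVA libraries, and *Cd8a* had 418, 417 and 416 and 449.6, 450.4 and 450.1 FPKM. The libraries of the groups did not overlap for either gene, with *Cd8b1* lower and *Cd8a* higher in si*Creb1* plus TVA cells. Summed over the 9 markers, the level was 3122, 3138 and 3117 FPKM in siNTC and 2959, 2961 and 2978 FPKM in si*Creb1* plus TVA libraries, or 94.9% of the control mean. Of the 9 markers 2 were called higher (*Cd3e* and *Cd8a*) and 6 lower (*Cd3d*, *Cd3g*, *Cd247*, *Cd8b1*, *Trac* and *Lck*).

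Markers of other cell types were also present, and those of platelets are given further below. *Cd4*, the defining marker of CD4+ T cells, had 1.55, 1.75 and 1.47 and 1.27, 1.02 and 0.943 FPKM, lower in each treated library. *Foxp3*, also listed with CD4+ T cells, had 1.87, 2.91 and 2.56 and 2.44, 2.92 and 2.71 FPKM, *Cd40lg*, below the filter, had 0.561, 0.966 and 0.656 and 1.00, 1.15 and 1.05 FPKM, higher in each treated library, and the 4 markers of that list summed to 5.37, 7.16 and 6.54 FPKM in siNTC and 6.02, 6.67 and 6.50 FPKM in si*Creb1* plus TVA libraries, with overlap. Neither *Cd4* nor *Foxp3* was called. *Ms4a1* of B cells, *Csf1r* and *Itgam* of myeloid cells and *Flt3* of dendritic cells all had less than 1 FPKM in each of the 6 libraries, and *Hba-a2* and *Hbb-bs* of red cells were at 0 in all 6. The 5 red cell markers, all below the filter, summed to 0.207, 0.191 and 0.160 FPKM in siNTC libraries. In si*Creb1* plus TVA libraries they summed to 0.327, 0.446 and 0.363 FPKM, without overlap. *Ighm*, listed with the B cell markers, had 347, 349 and 342 FPKM in siNTC and 295, 289 and 295 FPKM in si*Creb1* plus TVA libraries and was called lower (−0.24), and *Cd79b* had 12.3, 8.80 and 9.74 and 10.7, 9.13 and 10.8 FPKM. Among myeloid markers *Lyz2* had 6.77, 5.68 and 5.94 FPKM in siNTC and 8.20, 6.98 and 7.43 FPKM in si*Creb1* plus TVA libraries, and *Cd68* had 2.27, 2.65 and 2.95 and 3.51, 3.37 and 4.36 FPKM. Both were higher in every treated library, though neither was called, and the 9 myeloid markers summed to 10.6, 10.5 and 10.2 and 14.4, 13.8 and 13.8 FPKM without overlap. *Pecam1*, listed with fibroblasts and endothelial cells, had 19.3, 18.8 and 19.9 and 18.8, 18.2 and 18.3 FPKM, with overlap. *Cd74*, listed with dendritic cells, had 12.8, 15.3 and 13.7 and 10.8, 10.6 and 11.05 FPKM and was called lower (−0.33), and the 8 dendritic markers summed to 17.03, 19.2 and 16.98 and 14.3, 13.4 and 15.4 FPKM without overlap. *Fcer1g*, the most abundant of 5 NK cell markers, had 7.79, 8.02 and 9.05 and 9.30, 8.41 and 7.51 FPKM, 0 of the 4 tested were called by limma, and the 5 summed to 15.6, 16.5 and 17.3 and 18.03, 19.4 and 16.9 FPKM with overlap. The part of these cell types in the results below was not tested.

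The si*Creb1* plus TVA libraries were deeper than the siNTC libraries. Reads recovered from the FPKM values came to 20236123, 17523623 and 20758033 in the siNTC libraries and to 23616471, 24602484 and 21804748 in the si*Creb1* plus TVA libraries. Each si*Creb1* plus TVA library thus held more reads than each siNTC library, and the part of this in the results was not tested.

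**Figure D1:**
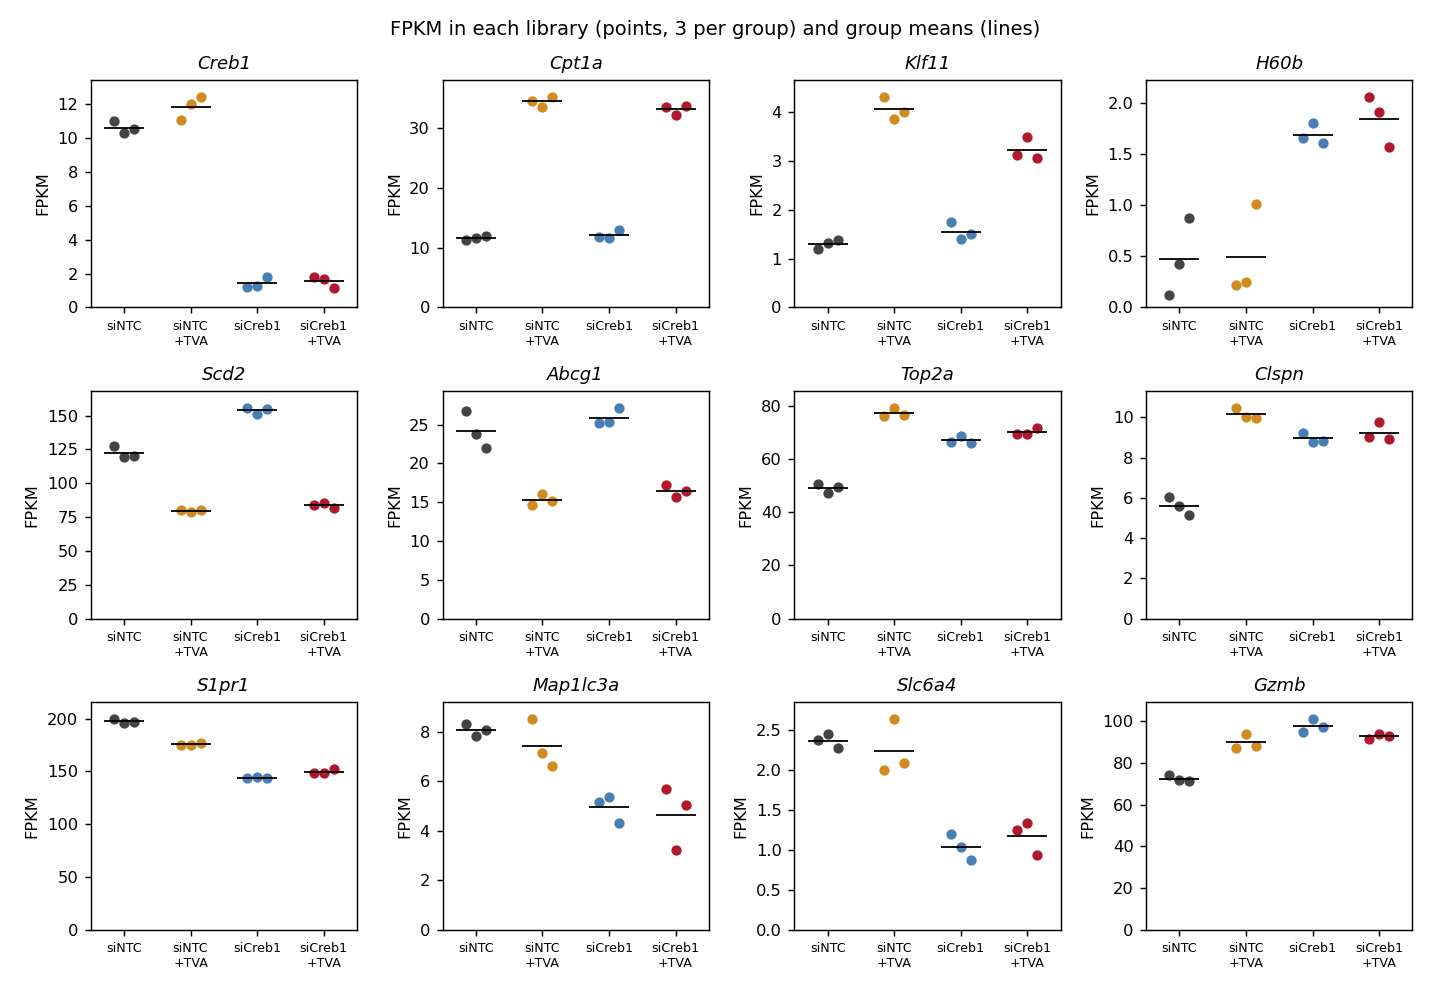
FPKM (vertical axes, from 0) of 12 genes in each of the 12 libraries, with 3 points for each group and a line at the group mean. *Creb1* was low in every library with si*Creb1*, and *Cpt1a* was high in every library with TVA.

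The comparison of si*Creb1* plus TVA with siNTC cells asks what the cells look like when TVA is present and most of the *Creb1* message is gone. Each gene was tested on log2(FPKM + 1) with limma in a fit of all 12 libraries, and a gene was called when its Benjamini-Hochberg adjusted p was under 0.05. Of 11548 genes, 2024 were called (17.5%), 936 of them higher in si*Creb1* plus TVA cells (8.11% of the genes tested) and 1088 lower (9.42%). In 2010 of the called genes (17.4% of those tested) the 3 libraries of one group lay wholly above the 3 of the other. For a called gene below, such separation of the libraries therefore adds little to its call. Most changes were small: the median size of a called log2 fold change was 0.22, only 126 were above 0.5 in size, and of these 96 were rises and 30 were falls. The median over all genes tested was −0.01. A fit of only the 6 libraries (the 6-library fit) called 1322 genes and a test of every gene above 0 (the unfiltered test) called 1442. These 2 alternatives are given below where they ended a call of a named gene or moved a count by over 1.5 times.

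The split between rises and falls moved with the scaling of the libraries. Rescaled to TPM, which makes every library sum to the same total, the fit called 1180 genes higher and 409 lower, and limma-voom on the recovered reads called 1547 higher and 929 lower, against 936 and 1088 with FPKM. The median of all genes moved to 0.05 and 0.03 with these scalings. Changes of that size can switch sign with the choice of scale, so counts with quantile normalization, TPM and limma-voom are set beside the counts of most gene lists below. For every list, the shares given beside it are 8.11% higher and 9.42% lower over all genes tested. With FPKM these shares varied with level. In the highest of 5 bins of protein-coding genes by mean FPKM, 175 of 1926 were called higher and 526 lower. In the lowest bin 126 of 1926 were higher and 48 lower. No list was compared with genes of like level, so a share lower above 9.42% in a list of abundant genes is not by itself particular to that list.

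The single changes, which share the same control libraries with the joint one, were fewer. Against siNTC cells, 851 genes (7.37%) were called in siNTC plus TVA cells, 516 higher and 335 lower. In si*Creb1* cells without TVA 1581 genes (13.7%) were called against the same controls, 748 higher and 833 lower. Adding TVA to si*Creb1* cells gave 62 called genes (0.537%), and knockdown in the presence of TVA gave 1178 (10.2%). The interaction, which is the departure of the joint change from the sum of the single changes, was called for 267 genes (2.31%), 55 with a joint change above the sum and 212 below it.

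**Figure D2:**
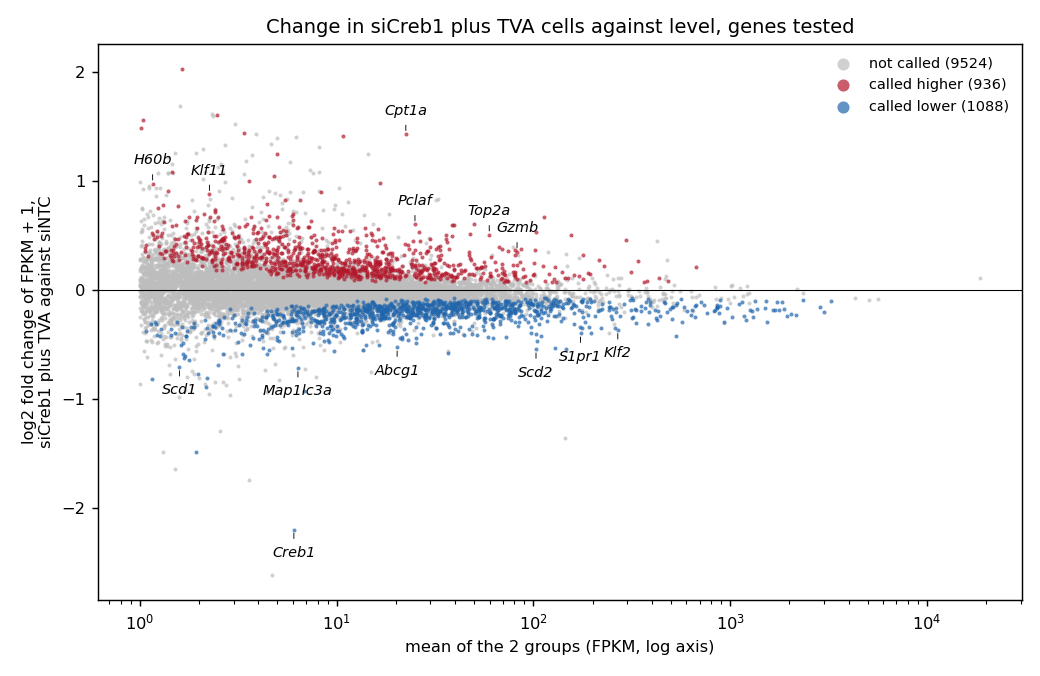
Log2 fold change of FPKM + 1 in si*Creb1* plus TVA against siNTC cells (vertical) against the mean of the group means in FPKM (horizontal, log axis), 1 point for each of the 11548 genes tested. Called genes are in red (936 higher) and blue (1088 lower), and *Creb1* and *Cpt1a* stand apart from most other genes.

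Among protein-coding genes *Cpt1a* had the largest rise and *Creb1* the largest fall of all called genes whose libraries did not overlap. The 12 largest rises and 12 largest falls described below were picked from the same genes, so the separation of their libraries restates that rule. The log2 fold change of *Cpt1a* was 1.43 (standard error 0.04, adjusted p = 4.81e-08 from limma) and that of *Creb1* was −2.19 (standard error 0.11, adjusted p = 1.54e-06 from limma). The single changes set beside these values were very uneven. *Cpt1a* changed by 1.48 with TVA alone and by 0.05 with knockdown alone. Its group means were 11.7, 34.5, 12.2 and 33.2 FPKM with neither change, TVA alone, knockdown alone and both. The libraries with TVA were thus at about the same level with either siRNA. *Creb1* itself changed by 0.14 with TVA alone, which was not called, and by −2.27 with knockdown alone.

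*Klf11* (ENSMUSG00000020653, chromosome 12, 24651274 to 24662789), a Krüppel-like factor that represses transcription, had 1.19, 1.31 and 1.38 FPKM in siNTC and 3.12, 3.49 and 3.06 FPKM in si*Creb1* plus TVA libraries. *Klf10*, its closest relative in the family, had 2.68, 2.04 and 2.33 and 3.98, 4.22 and 3.82 FPKM. All 3 si*Creb1* plus TVA libraries were above all 3 controls for both factors. The rise of *Klf11* was 0.88 (standard error 0.07, adjusted p = 5.65e-05) and that of *Klf10* was 0.58 (standard error 0.08, adjusted p = 0.00100). With TVA alone the values were 1.14 and 0.41, and with knockdown alone 0.15 and 0.13. The rest of the family was mostly lower or not called. Of 12 tested KLF and SP genes 2 were called higher, the pair just named, and 3 lower (1 with TPM, and 3 with quantile normalization and limma-voom). *Klf2*, which keeps T cells quiescent and maintains their homing receptors, had 293, 330.2 and 286 FPKM in siNTC and 239, 232 and 233 FPKM in si*Creb1* plus TVA libraries, so that the highest treated library was below the lowest control. Its change was −0.36 (adjusted p = 0.00183), beside −0.16 with TVA alone and −0.53 with knockdown alone. The falls of *Klf3* (−0.18) and *Klf6* (−0.15, named after its value was seen) were smaller. Without siNTC library 1 or 3 or si*Creb1* plus TVA library 1 or 3 *Klf3* was no longer called (adjusted p 0.0612 to 0.0748), and TPM also left it uncalled. The family's lower count was 1 without siNTC library 1 or si*Creb1* plus TVA library 3.

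*H60b* (ENSMUSG00000075297, chromosome 10, 22158586 to 22288849) encodes a ligand of the activating receptor NKG2D. It had 0.124, 0.427 and 0.875 FPKM in siNTC and 2.06, 1.91 and 1.57 FPKM in si*Creb1* plus TVA libraries, from 3, 9 and 22 reads and 60, 58 and 42 reads. The controls were spread but all below 1 FPKM, and the treated libraries were all above 1.5 FPKM. The log2 fold change was 0.98 (standard error 0.21, adjusted p = 0.0108), with 0.01 for TVA alone and 0.90 for knockdown alone. *H60b* passed the filter on mean FPKM only through the treated libraries, where it is high, and it kept its call when every gene above 0 was tested. Its exons overlap those of *Raet1e* on the same strand over 10.96% of their length and the gene belongs to a family of close copies, so its reads are uncertain where the counting could split them. *Cldnd2*, a claudin-domain gene, had 2.43, 3.51 and 5.22 FPKM in siNTC and 8.32, 7.32 and 5.90 FPKM in si*Creb1* plus TVA libraries. These groups did not overlap but came close, with a rise of 0.83, and this gene was no longer called without si*Creb1* plus TVA library 1 (adjusted p = 0.064) or 2 (adjusted p = 0.0524), in the 6-library fit or in the unfiltered test.

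Of the other genes among the 12 largest rises, *Mybl2*, a transcription factor of the cell cycle, had 2.87, 3.41 and 3.45 FPKM in siNTC and 5.34, 5.76 and 6.24 FPKM in si*Creb1* plus TVA libraries. *Pclaf*, whose product binds the replication clamp PCNA, had 19.8, 18.8 and 20.4 and 30.05, 30.4 and 30.6 FPKM. *Tcf19*, a nuclear gene expressed as cells enter S phase, had 31.7, 32.5 and 29.6 and 48.2, 47.1 and 47.8 FPKM. In all 3 genes the replicates of a group lay close together. Each treated library was above each control, which the choice of these genes required. Their rises were 0.68, 0.60 and 0.60, with adjusted p of 0.000220, 1.84e-05 and 0.000160. *Neil3*, a DNA glycosylase that acts at replication forks, rose by 0.64, *Clspn*, an adaptor of the replication checkpoint, by 0.63, and *Lrr1*, a subunit of a ubiquitin ligase that unloads the replicative helicase, by 0.67. *4930518I15Rik* rose by 0.67, and *Rec114*, a meiotic recombination gene with 0.941, 0.945 and 0.604 FPKM in siNTC and 2.12, 2.00 and 1.38 FPKM in si*Creb1* plus TVA libraries, by 0.63. *Rec114* gave −0.08 with TVA alone, which was not called, and its exons overlap those of *Nptn* on the opposite strand over 26.9% of their length. It too passed the filter only through the treated libraries, and kept its call when every gene above 0 was tested. Because 1 was added to each FPKM, these values understate the change of genes with few reads. With 0.1 added instead, the change was 1.99 for *H60b*, 1.04 for *4930518I15Rik* and 1.06 for *Rec114*, and the changes of *Scd1*, *Slc6a4*, *Tmem40*, *Slfn5* and *Plin2*, described below, were also over 1.5 times as large. With limma-voom these 8 changes were 2.30, 1.13, 1.18, −1.18, −0.98, −0.91, −0.80 and 0.54, and those of *Klf11*, *Lrr1*, *Vegfa* and *Hist1h4d* were 1.35, 1.07, 0.64 and 0.72. *H60b* gave 1.54 with TPM.

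**Figure D3:**
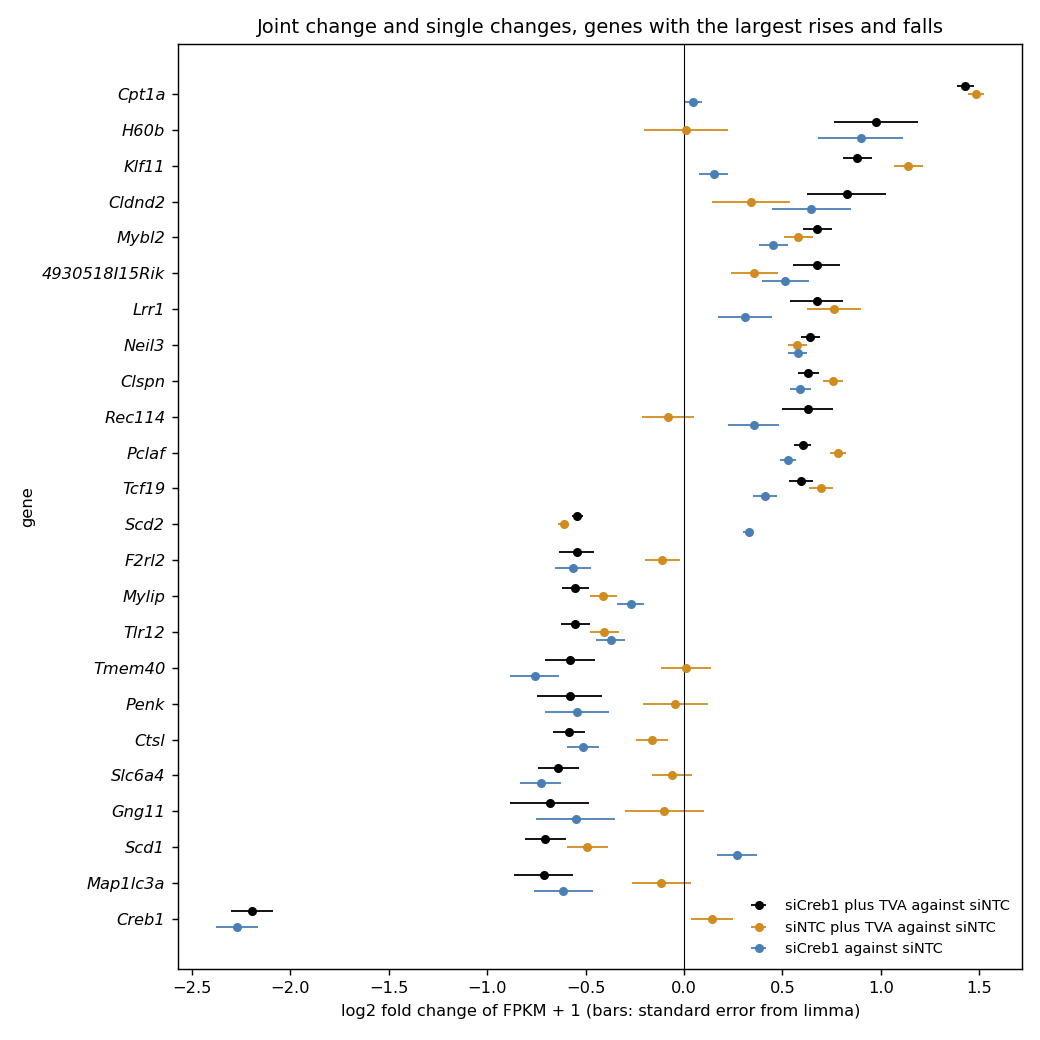
Log2 fold changes (horizontal axis, with standard errors from limma) of *Creb1*, *Cpt1a* and the protein-coding genes with the largest rises and falls in si*Creb1* plus TVA against siNTC cells (black), with TVA alone (orange) and with knockdown alone (blue). *Cpt1a* changed by 1.43 jointly and by 0.05 with knockdown alone, and *Scd2* by −0.54 jointly and by 0.33 with knockdown alone.

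The largest falls after *Creb1* included members of the lysosome and autophagy list, the platelet list and the list of LXR targets and desaturases, all described below. *Map1lc3a* (ENSMUSG00000027602, chromosome 2, 155276297 to 155278073), an LC3 protein of autophagosomes, had 8.31, 7.84 and 8.09 FPKM in siNTC and 5.68, 3.21 and 5.02 FPKM in si*Creb1* plus TVA libraries. *Ctsl*, the lysosomal protease cathepsin L, had 4.20, 4.14 and 4.18 and 2.61, 2.43 and 2.32 FPKM. In both genes the treated libraries were all lower than the controls, with a wide spread for *Map1lc3a* and a narrow one for *Ctsl*. The changes were −0.71 (standard error 0.15, adjusted p = 0.00840) and −0.58 (standard error 0.08, adjusted p = 0.000970). With knockdown alone they were −0.61 and −0.51, and with TVA alone −0.11 and −0.16. The exons of *Ctsl* overlap those of *Gm47123* on the opposite strand over 26.8% of their length, and whether the counting used strand is not given in the sources used here. *Tlr12*, an endosomal Toll-like receptor of mice, had 13.01, 11.3 and 10.8 FPKM in siNTC and 7.12, 8.15 and 7.64 FPKM in si*Creb1* plus TVA libraries and fell by 0.55. For this gene the treated libraries were again all lower, and each single change was a fall of similar size, −0.40 with TVA and −0.37 with knockdown. *Penk*, the precursor of enkephalins, had 3.40, 2.50 and 4.19 FPKM in siNTC and 1.33, 2.49 and 1.94 FPKM in si*Creb1* plus TVA libraries, where the highest treated library nearly met the lowest control. Its value of −0.58 was no longer past the threshold without siNTC library 1 or 3 or si*Creb1* plus TVA library 1 or 3 (adjusted p 0.0737 to 0.11), nor in the 6-library fit or in the unfiltered test, and 14.3% of its exons overlap *A830012C17Rik* on the opposite strand.

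*Slc6a4*, *Tmem40*, *F2rl2* and *Gng11*, also among the 12 largest falls, are genes of platelets. *Slc6a4*, the serotonin transporter, had 2.38, 2.45 and 2.28 FPKM in siNTC and 1.25, 1.33 and 0.929 FPKM in si*Creb1* plus TVA libraries. *F2rl2*, the thrombin receptor PAR3, had 5.83, 5.01 and 5.82 and 4.11, 3.35 and 3.04 FPKM. Both were lower in every treated library. Their changes were −0.64 and −0.55, and those of *Tmem40* and *Gng11* were −0.58 and −0.68. *Gng11* was not called without siNTC library 1, 2 or 3 or si*Creb1* plus TVA library 2 or 3 (adjusted p 0.0572 to 0.128), nor with TPM, in the 6-library fit or in the unfiltered test, and its change was −0.45 without si*Creb1* plus TVA library 2.

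A list of 26 platelet markers was then drawn up with these values known, so it carries no test. Of the 26, 22 were tested, 13 were called lower (against 9.42% of all genes) and 0 higher, with a median of −0.38, and TPM, quantile normalization and limma-voom kept this direction with 10, 15 and 15 called lower. Leaving out 1 library at a time left 9 to 12 called lower. Summed over the 26 markers the level was 286, 287 and 287 FPKM in siNTC and 221, 213 and 216 FPKM in si*Creb1* plus TVA libraries. The treated libraries were all lower and held 75.5% of the control mean. *Ppbp*, the most abundant of them, had 77.7, 83.9 and 88.6 and 64.8, 57.6 and 62.2 FPKM, and *Pf4* had 72.9, 73.9 and 68.9 and 53.4, 53.7 and 51.4 FPKM. *Gp1bb* was at 0 in 5 of the 6 libraries, *P2ry12* was below 0.2 FPKM in all 6, and *Gp1ba* showed no fall, with 5.16, 4.57 and 4.51 and 4.46, 4.94 and 4.76 FPKM. The mean sum was 287 FPKM with neither change, 269 with TVA alone, 189 with knockdown alone and 216 with both. How far these markers bear on the falls of the genes above was not tested, and in bulk RNA fewer cells of a type cannot be told apart from less RNA per cell. According to its methods, the study isolated its CD8+ T cells with magnetic beads.

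**Figure D4:**
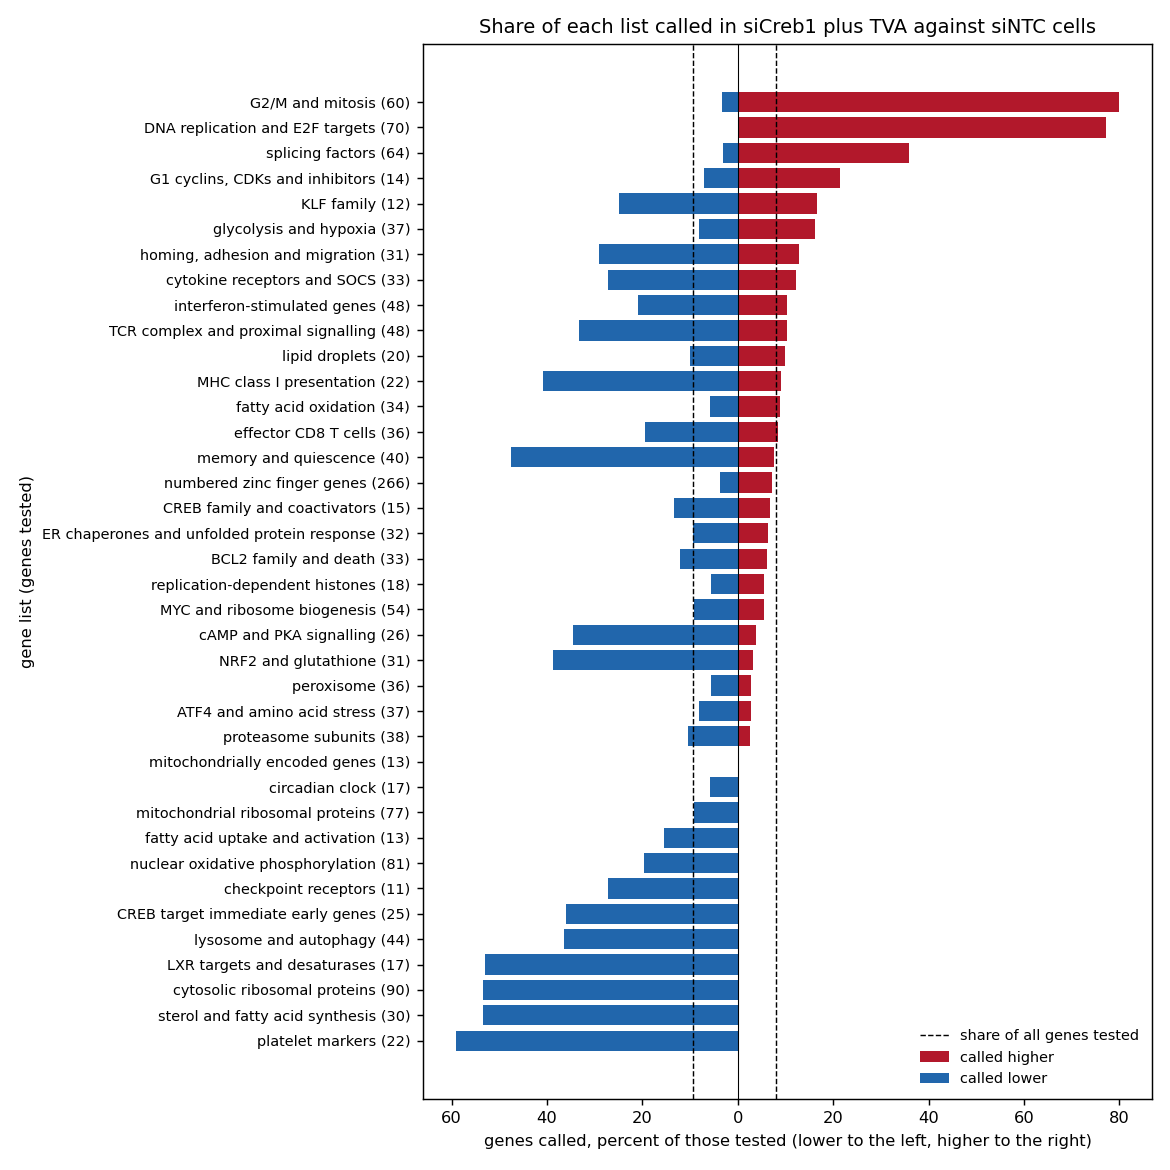
Share of the tested genes of each list (horizontal axis, percent) that was called higher (red, to the right) or lower (blue, to the left) in si*Creb1* plus TVA against siNTC cells, with dashed lines at the shares of all genes tested, 8.11% and 9.42%. The replication and mitosis lists reached farthest to the right, and the counts behind the blue bars of ribosomal protein, oxidative phosphorylation, TCR and MHC class I genes were smaller with TPM and quantile normalization, which are not drawn.

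Replication of DNA needs licensing factors that load the MCM helicase, kinases that fire origins, polymerases with their clamp and enzymes that make nucleotides, most of them transcribed by E2F factors as cells enter S phase. Of 70 genes of this kind, all tested, 54 were called higher (against 8.11% of all genes) and 0 lower, with a median log2 fold change of 0.36 beside −0.01 for all genes. The 0 comes from limma with the adjusted p, and TPM, quantile normalization and limma-voom also called 0 lower, with 55, 54 and 57 higher. Leaving out any 1 of the 6 libraries left 49 to 53 called higher. *Hells*, a chromatin remodeller of replicating cells, had 4.94, 4.76 and 5.05 FPKM in siNTC and 7.44, 8.30 and 7.85 FPKM in si*Creb1* plus TVA libraries. *Cdc7*, the kinase that fires origins, had 5.48, 5.83 and 5.34 and 8.94, 8.91 and 8.55 FPKM. *Prim1*, the catalytic subunit of primase, had 7.63, 7.70 and 7.47 and 11.8, 11.5 and 12.02 FPKM. Every treated library exceeded every control in all 3 genes. The rises were 0.58, 0.58 and 0.57, each with a standard error of 0.05 to 0.06.

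The same list in the single comparisons had 58 genes called higher with TVA alone (median 0.42) and 47 with knockdown alone (median 0.25). Adding TVA to si*Creb1* cells raised 1 of the 70 genes (median 0.06). The joint median of 0.36 thus lay between the single medians and below their sum, and the interaction was called for 36 of the 70 genes, all with a joint change below the sum (2.31% of all genes had an interaction). The single comparisons and the interaction were fitted with FPKM only, so their dependence on the scaling was not tested. In *Cdc7* the group means were 5.55 FPKM with neither change, 8.88 with TVA alone, 8.71 with knockdown alone and 8.80 with both.

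Mitosis is carried by a second wave of genes, for the kinases that start it, the condensins, the kinetochore and the spindle. Of 60 genes tested, 48 were called higher and 2 lower, with a median of 0.31. TPM, quantile normalization and limma-voom called 51, 47 and 53 higher and 0, 0 and 1 lower, and leaving out 1 library 42 to 46 higher. *Top2a* (ENSMUSG00000020914), the topoisomerase that untangles sister chromatids, had 50.6, 47.2 and 49.4 FPKM in siNTC and 69.5, 69.6 and 71.8 FPKM in si*Creb1* plus TVA libraries. *Mki67*, the common marker of proliferating cells, had 30.3, 28.6 and 30.3 and 42.97, 41.8 and 42.8 FPKM. *Ncaph*, a subunit of condensin I, had 7.87, 7.86 and 8.49 and 12.3, 11.97 and 12.2 FPKM. The groups were well apart in all 3 genes, with the treated libraries high. The changes were 0.51 (standard error 0.03, adjusted p = 6.06e-06), 0.50 (standard error 0.03, adjusted p = 5.88e-06) and 0.54 (standard error 0.06, adjusted p = 0.000234). *Pbk*, a mitotic kinase, rose by 0.54. The lower pair, *Smc4* (−0.12) and *Cdc25b* (−0.12), were named after their values were seen, and neither was called with quantile normalization or TPM, in the 6-library fit or without siNTC library 1 or si*Creb1* plus TVA library 1, while the list's lower count was 1 in the unfiltered test and without siNTC library 2 or 3 or si*Creb1* plus TVA library 2. With TVA alone 55 genes of the list were called higher (median 0.44), with knockdown alone 45 (median 0.27), and 46 had an interaction below the sum.

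*Ncaph* is also the named gene with the largest change whose promoter holds the full cAMP response element, TGACGTCA. The 300 bases from RefSeq (GRCm38.p6) run from 250 before to 50 after the gene's start, and this one lies at chr2:127133905-127134204 on the minus strand. It is shown because the element is the sequence that CREB is known to bind, and the capitals mark it.

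Ncaph: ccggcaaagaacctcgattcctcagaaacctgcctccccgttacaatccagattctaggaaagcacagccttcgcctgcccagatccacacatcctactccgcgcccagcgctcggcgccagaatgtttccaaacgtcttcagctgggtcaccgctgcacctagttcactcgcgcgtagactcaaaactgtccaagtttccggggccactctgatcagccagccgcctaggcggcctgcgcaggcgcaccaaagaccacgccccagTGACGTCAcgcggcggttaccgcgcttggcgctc

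Around these waves, the cyclins, kinases and inhibitors of G1 moved little as a list. Of 14 tested, 3 were higher and 1 lower, with a median of 0.00, and with quantile normalization, TPM and limma-voom 3 and 1, 4 and 0, and 5 and 1. *Cdk6* rose by 0.40 (8.85, 7.92 and 8.46 FPKM in siNTC, 11.5, 11.6 and 11.2 FPKM in si*Creb1* plus TVA libraries), *Cdk2* by 0.34 and the pocket protein *Rbl1* by 0.16, the last not called in the 6-library fit (adjusted p = 0.0653). The inhibitor *Cdkn1b* (p27) had 68.3, 67.6 and 69.4 FPKM in siNTC and 64.3, 59.5 and 61.9 FPKM in si*Creb1* plus TVA libraries. The treated libraries were slightly but wholly below the controls (−0.14), and *Cdkn1b* was not called with TPM (adjusted p = 0.155) or with quantile normalization (adjusted p just above the threshold). Among 54 tested genes of MYC and ribosome biogenesis 3 were called higher and 5 lower (8.11% and 9.42% of all genes were), but 5 and 3 with quantile normalization, 8 and 0 with TPM and 7 and 4 with limma-voom, and the median of −0.02 turned to 0.01 with quantile normalization, 0.04 with TPM and 0.01 with limma-voom. *Mxd3*, a MAX partner of S phase cells, rose by 0.28 and the nucleolar GTPase gene *Gnl3* by 0.27. The list's lower count was 2 in the 6-library fit, 3 in the unfiltered test, 2 without siNTC library 1 or 2 and 1 without si*Creb1* plus TVA library 1 or 2.

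Called genes of fatty acid oxidation and of lipid droplets went in both directions, at shares near those of all genes. Oxidation of fatty acids begins when CPT1A joins them to carnitine and the carrier SLC25A20 moves them into the mitochondrion. Of 34 tested genes of this pathway 3 were called higher and 2 lower (8.11% and 9.42% of all genes were), with a median of 0.01. Quantile normalization gave 3 and 2, TPM 3 and 1 and limma-voom 5 and 2. The 3 were *Cpt1a*, *Slc25a20* and *Acadvl*, the dehydrogenase for very long chains. *Slc25a20* had 6.05, 7.08 and 6.63 FPKM in siNTC and 8.31, 8.53 and 9.09 FPKM in si*Creb1* plus TVA libraries, and *Acadvl* had 13.6, 13.98 and 13.2 and 18.8, 18.7 and 17.5 FPKM. In both genes all treated libraries were above all controls, by 0.35 and 0.41. Each rose with TVA alone (0.52 and 0.32) and had values near 0 with knockdown alone (0.02 and −0.07). The exons of *Acadvl* overlap those of *Dvl2* on the opposite strand over 42.9% of their length, so part of its reads is uncertain. *Hsd17b10* (41.02, 45.8 and 47.00 FPKM in siNTC, 33.2, 34.4 and 33.5 FPKM in si*Creb1* plus TVA libraries) was lower, with a change of −0.39, and *Hadhb*, named after its value was seen, had −0.18.

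Of lipid storage, *Hilpda*, a small protein that inhibits the lipase ATGL at lipid droplets, had 7.81, 8.29 and 8.26 FPKM in siNTC and 10.9, 10.8 and 10.8 FPKM in si*Creb1* plus TVA libraries, with the treated libraries all higher (0.38, adjusted p = 0.00100). *Acsl3*, which activates fatty acids at forming droplets, had 7.81, 6.86 and 6.90 and 5.42, 5.04 and 5.50 FPKM, with the treated libraries all lower (−0.37). The droplet coat gene *Plin2* had 1.45, 1.41 and 1.32 and 2.17, 1.88 and 1.92 FPKM, higher in each treated library (0.32), but leaving out any of the 6 libraries put its adjusted p at 0.0551 to 0.101, and it also lost its call with quantile normalization, in the 6-library fit and in the unfiltered test. Of the 20 droplet genes tested 2 were called in each direction (8.11% of all genes were higher and 9.42% lower), as with TPM and limma-voom, against 1 higher and 2 lower with quantile normalization and in the unfiltered test and 1 in each direction in the 6-library fit, and with any library left out 1 was higher, while 1 was lower without siNTC library 1 or 3 or si*Creb1* plus TVA library 1 or 2. The second lower droplet gene, *Hsd17b11* (−0.22), was not called without any of those 4 libraries (adjusted p 0.0508 to 0.0684) or in the 6-library fit. Of 13 tested genes of fatty acid uptake and activation 0 were higher and 2 lower by limma (1 lower with TPM, 2 with quantile normalization and limma-voom, 1 in the 6-library fit and with a replicate block, and 1 in each direction in the unfiltered test). The second of these, *Slc27a4* (−0.23), lost its call without any siNTC library or si*Creb1* plus TVA library 1 or 3 (adjusted p 0.0524 to 0.144), with TPM, with a replicate block, in the 6-library fit and in the unfiltered test, and the list's lower count was 1 without siNTC library 1 or 3 or si*Creb1* plus TVA library 1 or 3.

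LXR receptors sense oxysterols and raise genes for cholesterol export and fatty acid desaturation. Of 17 tested LXR targets and desaturases 9 were called lower (9.42% of all genes were) and 0 higher by limma, with a median of −0.14. With TPM, quantile normalization and limma-voom 7, 8 and 8 were lower and 0 higher, and without single libraries 7 to 9 were lower, with 1 higher without siNTC library 1. *Scd1* (ENSMUSG00000037071, chromosome 19, 44394451 to 44407709), a stearoyl-CoA desaturase, had 2.54, 1.97 and 2.11 FPKM in siNTC and 0.905, 0.793 and 1.22 FPKM in si*Creb1* plus TVA libraries. *Scd2*, its more abundant neighbour on chromosome 19, had 127, 119.5 and 120.4 and 84.1, 85.6 and 81.7 FPKM. The treated libraries of both were all lower, with changes of −0.70 (standard error 0.10, adjusted p = 0.00121) and −0.54 (standard error 0.03, adjusted p = 2.60e-06). *Scd1* passed the filter only through the siNTC libraries, where it is high. With every gene above 0 tested it kept its call, and 7 of 21 genes of the list were lower and 0 higher. Single changes of *Scd2* went opposite ways, −0.61 with TVA alone and 0.33 with knockdown alone, and adding TVA to si*Creb1* cells lowered it by 0.87. Its group means were 122 FPKM with neither change, 79.8 with TVA alone, 154 with knockdown alone and 83.8 with both, so the libraries with TVA were low with either siRNA. *Abcg1*, the cholesterol exporter, had 26.7, 23.8 and 21.96 FPKM in siNTC and 17.3, 15.6 and 16.4 FPKM in si*Creb1* plus TVA libraries, and *Mylip*, which degrades the LDL receptor, had 16.5, 16.4 and 16.01 and 10.7, 10.7 and 11.1 FPKM. Both were lower in every treated library, with changes of −0.52 and −0.55. With TVA alone they gave −0.62 and −0.41, and with knockdown alone 0.10 and −0.27.

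Genes of sterol synthesis, which SREBP-2 controls, were lower too. Of 30 tested genes of sterol and fatty acid synthesis 16 were called lower (9.42% of all genes were) and 0 higher (median −0.20), and TPM, quantile normalization and limma-voom gave 12, 14 and 16 lower and 0 higher. Leaving out 1 library gave 14 to 16. *Cyp51*, the lanosterol demethylase, had 45.4, 47.6 and 47.8 FPKM in siNTC and 36.2, 36.1 and 35.7 FPKM in si*Creb1* plus TVA libraries. *Insig1*, which holds SREBP in the endoplasmic reticulum and is itself an SREBP target, had 36.5, 37.1 and 34.1 and 28.9, 27.7 and 27.2 FPKM. *Msmo1*, the next enzyme after lanosterol demethylation and reduction, had 16.1, 14.4 and 15.5 and 11.1, 11.5 and 11.9 FPKM. In all 3 the treated libraries lay below the controls without overlap. Their changes were −0.37, −0.35 and −0.38, and *Mvk*, mevalonate kinase, gave −0.38. With TVA alone 14 genes of the list were called lower and 0 higher (median −0.15), with knockdown alone 6 were higher and 0 lower (median 0.07), and adding TVA to si*Creb1* cells gave 16 lower (median −0.30).

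Among CREB's relatives and coactivators the change was largely that of *Creb1* itself. Of 15 tested genes 2 were called lower, *Creb1* and *Crebrf*, and 1 higher, *Crtc1*, beside 8.11% higher and 9.42% lower of all genes. With quantile normalization, TPM and limma-voom 1, 2 and 3 were higher and 2 lower in each. *Crebrf*, a CREB3 regulatory factor, had 16.6, 15.2 and 16.6 FPKM in siNTC and 12.2, 12.8 and 12.1 FPKM in si*Creb1* plus TVA libraries, and *Crtc1*, a CREB coactivator that cAMP brings into the nucleus, had 3.17, 2.87 and 3.12 and 3.76, 3.84 and 3.76 FPKM. The libraries were apart in both, with *Crebrf* low (−0.36) and *Crtc1* high (0.24) in treated cells. *Crem*, *Atf1* and the other 10 tested members were not called.

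The cAMP pathway upstream of CREB had 1 of 26 tested genes called higher and 9 lower (8.11% and 9.42% of all genes were), with a median of −0.03 that turned to 0.02 with TPM, where 2 were higher and 2 lower. Quantile normalization gave 1 and 6, and limma-voom 4 and 8 with a median of 0.00. The 9 were 2 in the 6-library fit, 5 in the unfiltered test, 5 without siNTC library 1 or 2, 3 without si*Creb1* plus TVA library 1 and 4 without si*Creb1* plus TVA library 3. *Pde3b*, the phosphodiesterase that breaks down cAMP in T cells, had 63.8, 60.2 and 61.4 FPKM in siNTC and 50.1, 53.3 and 49.6 FPKM in si*Creb1* plus TVA libraries. All treated libraries were lower (−0.27, adjusted p = 0.000416), beside −0.19 with TVA alone and −0.26 with knockdown alone. *Gnas*, the stimulatory G protein subunit, had 6.68, 8.26 and 6.62 and 4.02, 6.08 and 5.52 FPKM, lower in each treated library with a change of −0.41, and it lost its call without siNTC library 1, 2 or 3 or si*Creb1* plus TVA library 1 or 3 (adjusted p 0.0576 to 0.139). It was −0.26 without si*Creb1* plus TVA library 1, and *Gnas* was also not called with TPM, without a mean-variance trend, with a replicate block, in the 6-library fit or in the unfiltered test. The exons of *Gnas* overlap those of *Gm20721* on the opposite strand over 13.1% of their length. The single higher gene was *Akap8* (0.15, named after its value was seen), a nuclear anchor of protein kinase A.

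Immediate early genes, many of them classical CREB targets, had 9 of 25 tested called lower (9.42% of all genes were) and 0 higher by limma, with a median of −0.15. TPM, quantile normalization and limma-voom kept the direction with 4, 6 and 9 lower and 0 higher. The count was 5 in the 6-library fit, 4 in the unfiltered test, 4 without siNTC library 2, 5 without si*Creb1* plus TVA library 1 and 4 without si*Creb1* plus TVA library 3. *Dusp2*, a phosphatase of MAP kinases in activated lymphocytes, had 35.7, 38.1 and 34.3 FPKM in siNTC and 26.4, 28.6 and 29.2 FPKM in si*Creb1* plus TVA libraries. *Btg2*, an antiproliferative cofactor of mRNA deadenylation, had 107, 103 and 102 and 84.7, 84.7 and 84.98 FPKM. Treated libraries were wholly below controls in both, with changes of −0.35 (standard error 0.06, adjusted p = 0.00377) and −0.29 (standard error 0.03, adjusted p = 0.000123). With knockdown alone the values were −0.44 and −0.30, and 11 genes of the list were called lower. With TVA alone they were −0.23 and −0.09, and 3 were called lower.

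The promoter of *Btg2* holds the full element TGACGTCA, shown in capitals in its 300 bases from RefSeq (GRCm38.p6) at chr1:134079106-134079405 on the minus strand. It is printed because *Btg2* is a named early gene whose promoter holds the element. Whether CREB was bound there, or had a part in the fall of *Btg2*, was not tested.

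Btg2: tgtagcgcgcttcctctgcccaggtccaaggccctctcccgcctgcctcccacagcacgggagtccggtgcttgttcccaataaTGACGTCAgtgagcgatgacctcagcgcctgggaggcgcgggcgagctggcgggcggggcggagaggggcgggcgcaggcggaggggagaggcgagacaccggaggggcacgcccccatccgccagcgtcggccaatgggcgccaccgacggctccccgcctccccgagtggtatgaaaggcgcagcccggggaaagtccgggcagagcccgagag

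Promoters of the same length were searched for TGACGTCA, which reads the same on both strands, and for its core TGACG on either strand, which the full element contains. Among genes with a RefSeq promoter the full element was in 27 of 697 called higher (3.87%), 34 of 814 called lower (4.18%) and 308 of 7994 genes tested (3.85%). TGACG was in 248 of the higher (35.6%), 366 of the lower (45.0%) and 3030 of the tested genes (37.9%). Only 74.5% of the higher, 74.8% of the lower and 69.2% of all tested genes had a promoter in the table, so as a check of these gene sets the search is void and the shares are a description. Of 20 immediate early genes with a promoter 2 held TGACGTCA and 14 held TGACG, and of 12 CREB family genes 0 and 4 did. Of the 24 genes with the largest rises and falls, 17 had a promoter, of which 0 held TGACGTCA and 4 held TGACG. *Fau*, *Rpl18* and *Zap70* are the other named genes with TGACGTCA. A match is only a match of letters, and its absence concerns only the window searched.

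Genes of effector CD8+ T cells did not move as a block. Of 36 tested, 3 were called higher and 7 lower (8.11% and 9.42% of all genes were), with a median of 0.00. The counts were 3 and 4 with quantile normalization (median −0.01), 4 and 5 with TPM (median 0.05) and 9 and 5 with limma-voom (median 0.03), which turns the balance. *Gzmb*, the cytotoxic protease granzyme B, had 74.1, 71.7 and 71.4 FPKM in siNTC and 91.4, 94.1 and 93.04 FPKM in si*Creb1* plus TVA libraries. Every treated library was higher, by 0.35 (standard error 0.03, adjusted p = 0.000104). Granzymes are a family of close copies, so reads of *Gzmb* are uncertain where the counting could split them. *Il2rb* (0.17) and *Runx3* (0.10), the other higher genes, were named after their values were seen, and the list's higher count was 2 without siNTC library 1 or 2 or si*Creb1* plus TVA library 1 or 3. *Lamp1*, which lines cytotoxic granules and lysosomes, had 87.6, 83.96 and 82.2 FPKM in siNTC and 66.6, 69.8 and 73.5 FPKM in si*Creb1* plus TVA libraries, and *Irf4*, a transcription factor induced through the antigen receptor, had 7.10, 6.73 and 7.47 and 5.88, 5.72 and 5.84 FPKM. The treated libraries of both lay below the controls, with changes of −0.27 and −0.25. *Tbx21*, the gene of T-bet, had 15.98, 14.7 and 13.8 FPKM in siNTC and 16.05, 17.9 and 18.7 FPKM in si*Creb1* plus TVA libraries. The lowest treated library barely cleared the highest control, and the value of 0.23 missed the threshold (adjusted p = 0.106), although limma-voom called it (adjusted p = 0.0169).

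Memory and quiescence genes leaned to the lower side. Of 40, all tested, 19 were called lower and 3 higher (median −0.12, beside 9.42% lower and 8.11% higher of all genes), with 13, 15 and 18 lower and 3, 3 and 4 higher under TPM, quantile normalization and limma-voom, and 16 to 19 lower without single libraries. *S1pr1* (ENSMUSG00000045092, chromosome 3, 115710433 to 115715072), the receptor with which T cells leave lymph nodes, had 199.9, 196 and 197 FPKM in siNTC and 148, 149 and 152 FPKM in si*Creb1* plus TVA libraries. *Tsc22d3* (GILZ), a target of FOXO and glucocorticoids, had 29.9, 31.8 and 30.7 and 22.8, 22.3 and 24.3 FPKM. *Slfn2*, needed for T cell quiescence, had 299, 282 and 291 and 232, 225 and 229.6 FPKM. The 3 treated libraries were lower than all controls in each gene, and for *S1pr1* the gap was many times the spread. The changes were −0.40 (standard error 0.02, adjusted p = 1.07e-06), −0.40 and −0.34. *Slfn2* has near-identical relatives, so part of its reads is uncertain. *Ccr7* (−0.23) and *Tcf7* (−0.14), named after their values were seen, also fell, while *Ikzf2* (0.31), *Bcl2* (0.14) and *Rasgrp2* (0.11) rose, and the list's higher count was 2 without siNTC library 1 or si*Creb1* plus TVA library 1 or 3. With knockdown alone 23 genes of the list were called lower and 2 higher, and with TVA alone 12 and 0.

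Receptors for homing and cytokines gave mixed counts. Of 31 tested homing genes 4 were called higher and 9 lower (8.11% and 9.42% of all genes were), against 5 and 9 with quantile normalization, 5 and 7 with TPM and 7 and 9 with limma-voom, and the median of −0.03 was 0.00, 0.03 and 0.00 with them. *S1pr4*, a second sphingosine phosphate receptor of lymphocytes, had 118, 124 and 112 FPKM in siNTC and 89.7, 86.3 and 90.4 FPKM in si*Creb1* plus TVA libraries. Every treated library was below every control (−0.40). The count of 4 higher was 2 without si*Creb1* plus TVA library 1 and in the 6-library fit. Of 33 cytokine receptor and SOCS genes 4 were higher and 9 lower, but 6 and 7 with quantile normalization, 6 and 4 with TPM and 7 and 8 with limma-voom. *Ifngr1*, the ligand-binding chain of the interferon-gamma receptor, had 224, 222 and 226 FPKM in siNTC and 169, 174 and 168 FPKM in si*Creb1* plus TVA libraries. *Socs1*, the inhibitor of interferon and cytokine signalling, had 66.2, 72.2 and 64.2 and 50.6, 50.2 and 48.8 FPKM, and *Il7r* had 26.9, 25.1 and 26.8 and 22.6, 22.1 and 21.9 FPKM. All 3 were lower in every treated library, with changes of −0.39, −0.43 and −0.23, while *Cish* rose by 0.31 but was not called in the 6-library fit (adjusted p = 0.0648).

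The TCR complex and its proximal signalling had 5 of 48 genes called higher and 16 lower (median −0.06, beside 8.11% and 9.42% of all genes), but only 7 lower with quantile normalization and 2 with TPM, where the medians were −0.02 and −0.01, against 16 with limma-voom, and 5 higher with each. The 5 higher were 3 without siNTC library 2 or si*Creb1* plus TVA library 2, and the counts were 3 and 10 in the 6-library fit. The larger falls were those of the adaptors *Sla2* (−0.22) and *Sla* (−0.21), which help to lower surface TCR, and of *Zap70* (−0.19), the kinase recruited to the phosphorylated receptor. *Sla* had 28.03, 26.98 and 28.5 FPKM in siNTC and 24.2, 23.1 and 24.3 FPKM in si*Creb1* plus TVA libraries, with every treated library lower. The exons of *Sla2* overlap *Rab5if* on the opposite strand over 23.6% of their length, and *Zap70* was not called with TPM (adjusted p = 0.111) or in the 6-library fit (adjusted p = 0.056). Checkpoint receptors had 3 of 11 tested genes lower and 0 higher by limma, against 1 higher with quantile normalization and 2 higher with TPM, with limma-voom and without siNTC library 1, and 3, 2 and 3 lower with quantile normalization, TPM and limma-voom. *Tigit*, an inhibitory receptor, had 3.43, 4.88 and 4.99 FPKM in siNTC and 2.72, 2.74 and 2.96 FPKM in si*Creb1* plus TVA libraries. Every treated library was below every control (−0.50, adjusted p = 0.0109), although the controls varied more. Its values were −0.08 with TVA alone and −0.01 with knockdown alone, and the interaction of −0.41 was not called (adjusted p = 0.245). *Vsir* gave −0.25 and *Ctla4* −0.17, the latter not called with TPM (adjusted p = 0.106).

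Genes of MHC class I presentation had 2 of 22 called higher and 9 lower (8.11% and 9.42% of all genes were) with a median of −0.10. Quantile normalization turned this direction (6 higher, 2 lower, median 0.01). TPM turned the balance of the counts (3 higher, 2 lower) but not the sign of the median (−0.05), and limma-voom gave 4 and 8. The counts were 1 and 5 in the 6-library fit and in the unfiltered test. The 2 higher were 1 without siNTC library 2 or si*Creb1* plus TVA library 1 or 2. *H2-Q6* had the largest change of the list, with 357, 375 and 368 FPKM in siNTC and 294, 295 and 301 FPKM in si*Creb1* plus TVA libraries, all treated libraries lower (−0.30), but class Ib genes are near-identical copies and their reads are uncertain. *Nlrc5*, the transactivator of class I genes, was higher in every treated library (74.8, 77.7 and 76.4 FPKM in siNTC, 83.6, 83.4 and 84.5 FPKM in si*Creb1* plus TVA libraries, 0.14). Of 48 tested interferon-stimulated genes 5 were higher and 10 lower, but 7 and 8 with quantile normalization, 8 and 4 with TPM and 8 and 7 with limma-voom, and the median was 0.00. The 5 were 2 in the 6-library fit and in the unfiltered test, 3 without siNTC library 2 or si*Creb1* plus TVA library 2 and 2 without si*Creb1* plus TVA library 1 or 3. TVA alone gave 0 higher and 11 lower by limma, and knockdown alone 14 higher and 5 lower. *Slfn5* (2.11, 1.91 and 2.19 FPKM in siNTC, 1.28, 1.12 and 1.09 FPKM in si*Creb1* plus TVA libraries) fell by 0.50 and *Slfn1* by 0.34, both with all treated libraries lower, and *Oas3* rose by 0.26. The schlafen genes are close copies of one another, so how reads were shared between them is uncertain.

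Of 33 tested genes of the BCL2 family and cell death 2 were higher and 4 lower (8.11% and 9.42% of all genes were), but 3 and 4 with quantile normalization, 2 and 2 with TPM and 5 and 3 with limma-voom. The counts were 1 and 2 in the 6-library fit and in the unfiltered test. The 2 were 1 without siNTC library 1 or si*Creb1* plus TVA library 1 or 3, and the 4 were 2 without siNTC library 1 or si*Creb1* plus TVA library 3. *Bbc3* (PUMA), a BH3-only protein that starts apoptosis, had 27.7, 32.6 and 28.8 FPKM in siNTC and 21.5, 19.3 and 21.8 FPKM in si*Creb1* plus TVA libraries. *Bax*, which permeabilizes mitochondria, had 66.8, 72.7 and 72.2 and 58.5, 59.2 and 60.01 FPKM, and *Bcl2*, which opposes it, had 68.6, 66.8 and 69.7 and 75.02, 76.8 and 74.4 FPKM. The treated libraries were all low for *Bbc3* (−0.49, adjusted p = 0.000449) and *Bax* (−0.25) and all high for *Bcl2* (0.14). For *Bbc3* the single changes were −0.29 with TVA and −0.27 with knockdown. *Bmf* (−0.30) lost its call without siNTC library 1 or 3 or si*Creb1* plus TVA library 3 (adjusted p 0.0518 to 0.068), with TPM, in the 6-library fit and in the unfiltered test, and 12.2% of the exons of *Bax* overlap *Gm45808* on the same strand.

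Lysosome and autophagy genes, which include *Map1lc3a* and *Ctsl*, leaned lower. Of 44 tested 16 were called lower and 0 higher by limma (median −0.12, beside 9.42% lower of all genes), with 10, 13 and 16 lower and 1, 0 and 1 higher under TPM, quantile normalization and limma-voom, and 13 to 17 lower without single libraries. *Gabarapl1*, another ATG8 protein, had 11.5, 10.8 and 12.3 FPKM in siNTC and 8.76, 8.74 and 7.67 FPKM in si*Creb1* plus TVA libraries, and *Gaa*, the lysosomal glucosidase, had 8.85, 9.82 and 8.46 and 7.13, 7.04 and 7.33 FPKM. Both were lower in all treated libraries, with changes of −0.42 and −0.30, with 28.3% of the exons of *Gabarapl1* overlapping *1700101I11Rik* on the opposite strand. With knockdown alone 17 genes of the list were called lower, and with TVA alone 3.

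Antioxidant genes under NRF2 had 12 of 31 tested called lower and 1 higher (median −0.11, beside 9.42% and 8.11% of all genes), with 5, 9 and 10 lower and 1, 1 and 2 higher under TPM, quantile normalization and limma-voom and 8 to 13 without single libraries, and 0 higher without siNTC library 1 or any si*Creb1* plus TVA library, in the 6-library fit or in the unfiltered test. *Gpx4*, the peroxidase that protects membranes from lipid peroxides, had 68.4, 71.7 and 69.99 FPKM in siNTC and 56.1, 54.9 and 54.3 FPKM in si*Creb1* plus TVA libraries, and *Ephx1*, epoxide hydrolase, had 26.4, 26.03 and 25.4 and 22.2, 22.4 and 20.1 FPKM. Controls were above treated libraries throughout, with changes of −0.34 and −0.26. The amino acid stress program of ATF4 had 1 of 37 tested genes higher (2 without siNTC library 2 or si*Creb1* plus TVA library 2) and 3 lower, but 4 and 3 with quantile normalization, 3 and 1 with TPM and 5 and 3 with limma-voom. *Psat1*, of serine synthesis, had 12.5, 12.5 and 12.4 FPKM in siNTC and 16.04, 16.1 and 15.9 FPKM in si*Creb1* plus TVA libraries, and *Trib3*, a pseudokinase induced by ATF4, had 5.77, 6.52 and 5.24 and 4.08, 3.93 and 4.18 FPKM. The libraries were apart in opposite directions, with *Psat1* up by 0.34 and *Trib3* at −0.43. *Atf4* itself changed by −0.20 and *Wars* by −0.17, neither of them called with TPM (adjusted p 0.0594 and 0.112).

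Glycolysis and hypoxia genes had 6 of 37 tested called higher and 3 lower (8.11% and 9.42% of all genes were), with a median of 0.01. Quantile normalization gave 8 and 2, TPM 9 and 1 and limma-voom 12 and 2. The 6 were 3 without siNTC library 3 or si*Creb1* plus TVA library 2 or 3, and the 3 were 1 without siNTC library 1 or si*Creb1* plus TVA library 1 or 3, in the 6-library fit and in the unfiltered test. *Tpi1*, the triose phosphate isomerase, had 42.9, 40.1 and 41.6 FPKM in siNTC and 52.2, 49.5 and 54.8 FPKM in si*Creb1* plus TVA libraries, and *Vegfa* had 1.68, 2.04 and 1.58 and 2.57, 2.61 and 2.82 FPKM. Both were higher in every treated library, by 0.32 and 0.41. In the unfolded protein response 2 of 32 tested genes were higher and 3 lower, among peroxisome genes 1 and 2 of 36, and among clock genes 0 and 1 of 17. For the unfolded protein response the balance turned to 5 and 2 with quantile normalization, 4 and 2 with TPM and 7 and 2 with limma-voom, and for peroxisome genes to 2 and 0 with TPM and 2 and 1 with limma-voom, with 1 and 2 under quantile normalization. The 2 higher of the first were 0 in the 6-library fit, in the unfiltered test, with a replicate block and without si*Creb1* plus TVA library 2, and 1 without siNTC library 2 or 3 or si*Creb1* plus TVA library 1 or 3. In peroxisomes the 1 higher was 2 without siNTC library 1 and 0 without siNTC library 3 or si*Creb1* plus TVA library 3, and the 2 lower were 1 without siNTC library 1 or 2 and 0 without siNTC library 3 or si*Creb1* plus TVA library 2 or 3. The peroxisome counts were 0 and 1 in the 6-library fit and 0 and 0 in the unfiltered test. The clock gene *Cry1* (−0.22) was not called without siNTC library 1 or 2 or any si*Creb1* plus TVA library (adjusted p 0.0535 to 0.115), nor with TPM, in the 6-library fit or in the unfiltered test. *Eif2ak3* (PERK), a sensor of the unfolded protein response, kept its call in every alternative, with 8.94, 9.64 and 9.16 FPKM in siNTC and 8.03, 7.73 and 7.81 FPKM in si*Creb1* plus TVA libraries, all treated libraries lower (−0.21).

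Ribosomal and respiratory genes of the nucleus had small falls whose number depended on the scaling, and genes encoded in mitochondria did not. Cytosolic ribosomal proteins had 48 of 90 tested genes called lower (9.42% of all genes were) and 0 higher by limma (median −0.12), but 10 lower and 2 higher with quantile normalization (median −0.02), 22 lower with TPM (median −0.06) and 47 with limma-voom (median −0.08). Leaving out 1 library gave 39 to 47. *Rack1* had 562, 566 and 539 FPKM in siNTC and 469.7, 452 and 465 FPKM in si*Creb1* plus TVA libraries, *Fau*, the source of ribosomal protein S30, had 1626, 1823 and 1621 and 1413, 1354 and 1375 FPKM, and *Rpl18* had 441, 488 and 467 and 384, 381 and 388 FPKM. Treated libraries were below controls without overlap in these 3 genes, with changes of −0.26, −0.29 and −0.27, and with quantile normalization of −0.15, −0.11 and −0.17. Nuclear genes of oxidative phosphorylation had 16 of 81 tested lower and 0 higher by limma (median −0.07), but 4 lower with TPM and with quantile normalization, where the medians were −0.01 and −0.02, and 11 lower and 2 higher with limma-voom (1 higher with TPM). The 16 were 8 in the 6-library fit, 6 in the unfiltered test, 10 without a mean-variance trend, 10 without siNTC library 1 or si*Creb1* plus TVA library 2, 8 without siNTC library 2 and 9 without si*Creb1* plus TVA library 1 or 3. *Cox7a2l*, which joins respiratory complexes, kept its call in every alternative, with 469.7, 456 and 439 FPKM in siNTC and 389, 384 and 372 FPKM in si*Creb1* plus TVA libraries, every treated library lower (−0.25). Of 77 mitochondrial ribosomal proteins 7 were lower, near the 9.42% of all genes, and 0 higher by limma, with 4, 2 and 6 lower under quantile normalization, TPM and limma-voom (2 in the unfiltered test, 4 with a replicate block, 2 without siNTC library 2, 4 without siNTC library 3 and 3 without si*Creb1* plus TVA library 1 or 2, and 1 higher without siNTC library 2), with *Mrpl34* at −0.26. Of the 13 genes encoded in mitochondria 0 were called with limma, while 2 were called higher with quantile normalization and 1 without siNTC library 1. *mt-Co1* had 6294, 5529 and 5671 FPKM in siNTC and 5501, 5486 and 5563 FPKM in si*Creb1* plus TVA libraries, and *mt-Nd1* had 2582, 2185 and 2319 and 2313, 2279 and 2357 FPKM, with overlapping groups.

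Of 64 tested splicing factors 23 were called higher and 2 lower (median 0.04, beside 8.11% and 9.42% of all genes), and TPM, quantile normalization and limma-voom gave 24, 24 and 27 higher and 1, 0 and 2 lower, with 19 to 23 without single libraries. *Hnrnph1*, an RNA-binding regulator of splicing, had 63.5, 65.1 and 67.6 FPKM in siNTC and 83.6, 84.1 and 84.1 FPKM in si*Creb1* plus TVA libraries, and *Srsf7* had 49.3, 56.1 and 58.7 and 68.7, 68.2 and 66.03 FPKM. Each treated library was higher, by 0.36 (adjusted p = 3.45e-05) and 0.30. *Hnrnpa3* and *Prpf39* rose by 0.31 and 0.30, and the lower pair, *Hnrnpa0* (−0.29) and *Snrpb* (−0.15), were named after their values were seen, and the list's lower count was 1 without si*Creb1* plus TVA library 1 or 2, in the 6-library fit and in the unfiltered test. Zinc finger genes named Zfp had 19 of 266 tested higher and 10 lower (8.11% and 9.42% of all genes were), but 13 and 10 with quantile normalization, 26 and 3 with TPM and 33 and 8 with limma-voom. The counts were 9 and 9 in the 6-library fit and 10 and 6 in the unfiltered test. Without siNTC library 2 the 19 were 12, and without si*Creb1* plus TVA library 1, 2 or 3 they were 11, while the 10 were 5 to 6 without siNTC library 1 or si*Creb1* plus TVA library 1, 2 or 3. *Zfp512* rose by 0.36, and *Zfp36l2*, which destabilizes mRNA, had 197, 210.1 and 189 FPKM in siNTC and 155, 159 and 155 FPKM in si*Creb1* plus TVA libraries, all treated libraries lower (−0.34). Proteasome subunits had 1 of 38 tested higher and 4 lower, led by *Psmb1* (−0.25) and *Psma7* (−0.21), with 3, 2 and 4 lower and 1 higher under quantile normalization, TPM and limma-voom, and the 1, *Psmd14*, lost its call without siNTC library 1 or 3 or si*Creb1* plus TVA library 2 or 3 (adjusted p 0.0927 to 0.132), in the 6-library fit and in the unfiltered test. Replication-dependent histones had 1 of 18 tested called in each direction, *Hist1h4d* (0.47) higher and *Hist1h1c* (−0.26) lower, and neither held when single libraries were left out (1 and 1 with quantile normalization, 1 and 0 with TPM and limma-voom). *Hist1h4d* lost its call without siNTC library 1 or 2 or si*Creb1* plus TVA library 2 or 3 (adjusted p 0.0541 to 0.0755) and *Hist1h1c* without any siNTC library or si*Creb1* plus TVA library 1 or 3 (adjusted p 0.0631 to 0.136), and both lost it in the 6-library fit and in the unfiltered test. Histone genes are near-identical copies, and 49 of the 67 listed were below the filter.

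Across protein-coding genes the direction ran with transcript properties. Split into 5 bins of equal size by gene length, the shortest bin had 81 genes called higher and 288 lower (median −0.05) and the longest 245 and 106 (median 0.03). By GC content of the longest transcript the lowest bin had 234 higher and 114 lower and the highest 84 and 292. By mean FPKM the lowest bin had 126 higher and 48 lower (median 0.04) and the highest 175 and 526 (median −0.06). The order by length and by GC was kept with TPM, quantile normalization and limma-voom, and the order by level was mostly reversed with quantile normalization, where the lowest bin had a median of −0.02 and the highest −0.01. The part of these properties in the counts of the gene lists above was not tested.

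**Figure D5:**
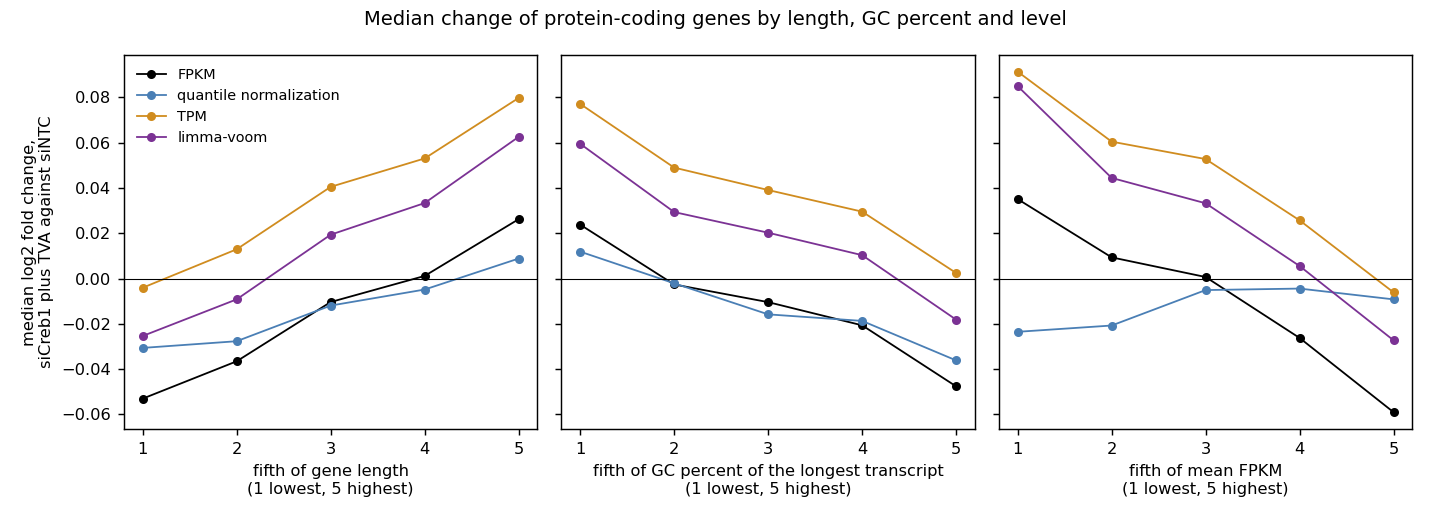
Median log2 fold change of protein-coding genes in si*Creb1* plus TVA against siNTC cells (vertical axis) for 5 equal bins of gene length, GC percent and mean FPKM (horizontal axes, 1 lowest to 5 highest), with FPKM, quantile normalization, TPM and limma-voom. With FPKM the medians ran from −0.05 to 0.03 by length, and the medians declined with level under FPKM, TPM and limma-voom but not under quantile normalization.

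Genes outside the protein-coding class went different ways by class, beside 8.11% higher and 9.42% lower over all genes. Of 213 lincRNAs tested 32 were higher and 9 lower, of 211 antisense genes 19 and 2, and of 106 unconfirmed transcripts (TEC) 15 and 1. Processed pseudogenes had 11 higher and 34 lower of 637 tested, transcribed unprocessed pseudogenes 6 and 0 of 22, TCR variable segments 0 and 8 of 94 by limma, and TCR constant genes 1 and 3 of 7. The share of antisense genes called higher and of TCR variable segments called lower was near that of all genes. Antisense genes and pseudogenes share sequence with other genes, so their values are uncertain where reads could be assigned to either. Of the 12 called genes with a change above 1 in size, *Cpt1a* and *Creb1* were the only protein-coding ones, and the others were small RNAs, a pseudogene and TCR joining segments.

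The study names 6 genes for this experiment. They come from a pool of genes for which siNTC plus TVA cells differed from the other 3 groups. From that pool the study chose them for their parts in proliferation, T cell function or apoptosis. *Tbx21*, also among the 6, is described above with the effector genes. The joint comparison is between 2 of those other groups. Their libraries took part in the choice of the pool, which can favour genes that are alike in both. The joint values of these genes are therefore a description and no independent test. *Il18* was at 0 in the siNTC libraries and had 0, 0.0388 and 0.0878 FPKM in the si*Creb1* plus TVA libraries, and *Ebi3* had 0.0868, 0.349 and 0.167 and 0.542, 0.277 and 0.157 FPKM. Both lay below the filter, so limma did not test them, and their groups overlapped (exact permutation test, two-sided, p = 0.4 and p = 0.6 with 3 libraries each). *Ilf2* had 6.12, 6.34 and 6.51 FPKM in siNTC and 7.15, 7.39 and 6.65 FPKM in si*Creb1* plus TVA libraries, *Foxo4* had 14.1, 13.6 and 12.9 and 13.1, 13.5 and 12.3 FPKM, and *Bcl6* had 1.63, 1.94 and 1.51 and 1.47, 1.21 and 1.67 FPKM. The treated libraries of *Ilf2* were just above the controls, and those of *Foxo4* and *Bcl6* overlapped them. The values were 0.14 (adjusted p = 0.113, and 0.0192 with limma-voom), −0.06 (adjusted p = 0.573) and −0.14 (adjusted p = 0.349). For *Foxo4* and *Bcl6* the values with TVA alone were larger in size, −0.23 and −0.31, than the joint ones, and the interactions of 0.32 and 0.38 were not called (adjusted p = 0.104 and 0.189). Both kinds of value involve siNTC plus TVA cells, the group that defined the pool of genes, so they restate that choice and are no test of it.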

How the data were processed

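The authors deposited FPKM values for 54532 genes, 1 file per library, with Ensembl identifiers, positions and gene lengths. Genome builds GRCm38 and mm10 are given in their processing notes, and the aligner, the counting program and its use of strand are not given in the sources used here. Of the genes named above for overlapping exons, *Dvl2*, *Nptn* and *Rab5if* had mean values of 10.2, 17.8 and 16.5 FPKM. *Gm20721* and *Raet1e* had 0.0999 and 0.0206 FPKM. *Gm47123*, *1700101I11Rik*, *Gm45808* and *A830012C17Rik* were at 0. FPKM times gene length was a whole multiple of 1 step per library (within 0.01 of a read) for at least 99.995% of genes above 0, which gave 16660234 to 24602484 reads per library.

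A gene was kept when its FPKM averaged 1 or more in the 6 compared libraries, and limma 3.58.1 in R 4.3.3 then fitted log2(FPKM + 1) (1 coefficient per group, all 12 libraries, eBayes with a mean-variance trend, two-sided). The Benjamini-Hochberg adjustment ran over 11548 genes, with a threshold of 0.05. Tables and figures used Python 3.11.15, pandas 2.3.3, scipy 1.17.1 and matplotlib 3.10.9.

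Named genes are *Creb1*, *Cpt1a*, the genes the study names for this experiment, the top 12 rises and top 12 falls of protein-coding genes that were called and did not overlap between groups, and up to 4 called members of each gene list (or up to 2 of the most abundant where none was called). The comparison, members and lists were chosen with earlier results of these data known. The fit was also repeated with 0.1 as the pseudocount, every gene above 0, a mean FPKM of at least 5, the filter over all 12 libraries, quantile normalization, TPM computed from FPKM, no mean-variance trend, only the 6 libraries, the replicate number as a block, limma-voom on recovered reads, and leaving out each of the 6 libraries. Promoters are from RefSeq (GRCm38.p6).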

Additional observations from a re-analysis of the deposited data

Results flagged for a closer look

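For 22 of the 149 named genes that were tested, the change with TVA differed between si*Creb1* and siNTC cells, by the interaction term of the limma fit (adjusted p under 0.05, as for 2.31% of all genes). The value given for each is the log2 change with TVA after knockdown less the one with the control siRNA, which equals the joint change minus the sum of both single changes. It was negative for 18 genes and positive for 4.

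Among replication genes and genes that rise with them the values were −0.72 for *Clspn*, −0.71 for *Pclaf*, −0.58 for *Cdc7*, −0.55 for *Hells*, −0.51 for *Neil3*, −0.51 for *Tcf19* and −0.47 for *Prim1*. Mitotic genes had −0.58 (*Top2a*), −0.55 (*Ncaph*) and −0.49 (*Mki67*), and regulators of G1 and of MAX had −0.53 (*Mxd3*), −0.35 (*Rbl1*), −0.30 (*Cdk6*) and −0.23 (*Cdk2*). In these genes TVA raised the level in siNTC cells more than in si*Creb1* cells, where the level without TVA was already above that of siNTC cells. *Top2a*, for example, had means of 49.1, 77.4, 67.00 and 70.3 FPKM with neither change, TVA alone, knockdown alone and both.

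The other negative values were −0.38 for *Gzmb*, −0.35 for *Psat1*, −0.26 for *Scd2* and −0.22 for *Wars*. *Scd2* was raised by knockdown and lowered by TVA, and its fall with TVA was larger in si*Creb1* cells. The positive values were 0.36 for *Zfp36l2*, 0.28 for *Il7r*, 0.25 for *S1pr4* and 0.22 for *S1pr1*, all genes that fell with TVA alone, fell more with knockdown alone, and had joint falls smaller than the sum. *S1pr1* had means of 198, 176, 144 and 149.9 FPKM in the same order. The interaction was fitted with FPKM only, and its dependence on the scaling was not tested.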

How the results depend on the processing

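Of 143 named genes that were called, 99 kept their call in every alternative that tested them (19 of these in 15 of the 16, as their mean FPKM was under 5), 44 lost it in at least 1 and 0 changed sign. *Creb1* (−2.75 to −2.08) and *Cpt1a* (1.41 to 1.54) kept theirs in each.

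The number of called genes, 2024 (936 higher, 1088 lower), was 1322 (614 higher, 708 lower) with only the 6 libraries in the fit, which has fewer residual degrees of freedom. It was 1589 with TPM, where 409 were lower, and 2476 with limma-voom, where 1547 were higher and 929 lower. The cause of these shifts was not tested. Quantile normalization called 1723 (936 higher, 787 lower), testing all 27019 genes above 0 called 1442, and a mean FPKM of at least 5 called 1765 of 7479. Leaving out 1 library called 1410 to 1701 genes, 662 to 783 higher and 744 to 918 lower.

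With the replicate number as a block (replicate block) 1813 genes were called, 848 higher and 965 lower, 1723 of them also called without it. Whether libraries of the same number share a mouse or a day is not in the labels, and their correlations after removing group means were −0.02, −0.06 and −0.01, with no library closest to its own number.

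The unit tested is the library, 3 per group, and depth, knockdown and TVA differ together between the groups.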
